A study of Caenorhabditis elegans with 14 samples.

Results

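The cytosolic ribosome of Caenorhabditis elegans is built on ribosomal RNA from proteins of a large subunit, encoded by genes named rpl-, and of a small subunit, encoded by genes named rps-. These genes are transcribed at high levels in nearly every cell, and their messenger RNAs are among the most abundant of the animal. In C. elegans most small RNAs of about this size that are counted at protein-coding genes are antisense 22G RNAs, made by RNA-dependent RNA polymerases on a messenger RNA template and bound by Argonaute proteins, and fragments of the messenger RNA itself can be counted beside them. Genes were chosen by name, as those whose WBcel235 gene name starts with rpl- or rps-. The annotation holds 78 such genes. Of these, 76 have a row among the 20541 genes of the count table, 45 of the large and 31 of the small subunit. The 2 others, rpl-41.1 and rpl-41.2, are not analysed here. No measured value entered the choice.

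The study followed heritable silencing at sid-1, the gene of a double-stranded RNA channel, in synchronized young adults. Reads of 21 to 26 nt were assigned to genes in 12 small RNA libraries labelled 5'-independent, made after a polyphosphatase step that opens triphosphate 5' ends to ligation. The groups were the wild type N2 (n = 2); HC125, whose transgene Psid-1::gfp puts gfp under control of the promoter of sid-1 (n = 4); hrde-1;HC125 (strain HC995), which carries the same transgene and a mutation in hrde-1, the gene of a germline nuclear Argonaute (n = 2); and lines of strain HC83, non-array by label, taken at F6, when silenced (n = 2), and at F21, when de-silenced (n = 2). The labels name neither the hrde-1 allele nor the make-up of the array, and the libraries come from whole animals. Small RNA counts do not check the hrde-1 mutation. Whether replicates were separate cultures is not given, so a p-value here reflects the spread among these samples alone, and that spread may be technical.

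Library totals ran from 451389 to 6379388 reads assigned to genes. On the second component of a principal component analysis (24.8% of the variance) 3 libraries lay apart from the other 9, namely N2 replicate 2 and HC125 replicates 1 and 2, and results that rest on them are given with and without them. The other 9 were not alike either. On the third component (11.4%) N2 replicate 1 lay at -68.5, and all others between -5.12 and 32.6. Without the 3 libraries, N2 rests on that replicate alone. Markers of the germline (10 of 10 genes with counts), sperm (31 of 31), intestine (8 of 8), body wall muscle (4 of 4) and neurons (4 of 4) were all counted, as whole animals would give. Of 158 hypodermis markers 8 had no count. In such bulk samples fewer cells of a type and less RNA per cell cannot be told apart, and a small RNA count measures neither messenger RNA nor protein.

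Ribosomal protein genes together took a small and rather even share of the small RNAs. They held 0.415% and 0.467% of all counts in the N2 pair, 0.489%, 0.356%, 0.527% and 0.441% in the 4 HC125 libraries, 0.373% and 0.427% in the hrde-1;HC125 pair, 0.419% and 0.407% in the F6 pair, and 0.369% and 0.367% in the F21 pair. The 4 HC125 libraries spanned the values of every other group, and the 2 F21 libraries were lower than all but HC125 replicate 2. The widest 95% Wilson interval was 0.469% to 0.510%, in HC125 replicate 1, and such intervals cover counting error only. The mean was 0.441% ± 0.0369 for N2 (SD, n = 2) and 0.454% ± 0.0738 for HC125 (n = 4). For hrde-1;HC125, F6 and F21, each with n = 2, it was 0.400% ± 0.0381, 0.413% ± 0.00879 and 0.368% ± 0.00160.

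**Figure D1:**
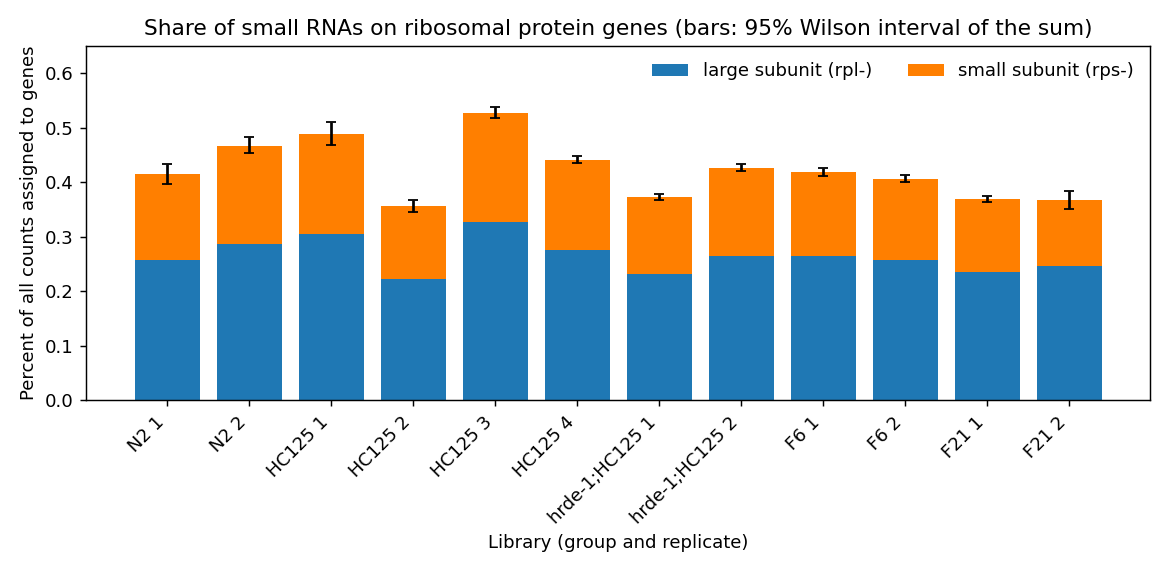
Percent of all counts assigned to genes that fell on ribosomal protein genes, for each of 12 libraries, stacked by subunit, with the 95% Wilson interval of the sum. The sums run from 0.356% in HC125 replicate 2 to 0.527% in HC125 replicate 3, so libraries of 1 group span the whole range.

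The large subunit took more of these reads than the small in every library. The ratio of large to small lay between 1.58 and 1.77 in 11 libraries and reached 2.04 in F21 replicate 2, one of the shallow libraries with 514814 reads. In that library the small subunit held 0.121% of the counts, its lowest share in any library. Per gene the median level was 48.1 CPM (counts scaled to library size with edgeR's TMM factors) over the large subunit and 42.3 CPM over the small.

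Single ribosomal protein genes lay above most genes with small RNAs once length was allowed for. Of the 76 genes, 75 passed the filter on low counts, and rpl-25.1 did not. The median over those 75 was 46.5 CPM and 76.9 CPM per kb of exon, against 27.04 CPM over all tested genes and 20.4 CPM per kb over the 10351 of them with a length. Of those, 15.7% lay above the median ribosomal protein gene per kb. The 75 ran from 8.90 to 177 CPM. Longer genes had more reads, with a Spearman rho of 0.42 between exon length and CPM across 75 genes, a description across genes that share libraries.

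Among the large subunit genes rpl-43 led with 527 CPM per kb, followed by rpl-34 with 415, rpl-11.1 with 270.4, rpl-16 with 224, rpl-27 with 164 and rpl-29 with 159. Among the small subunit genes rps-11 led with 186 CPM per kb, followed by rps-24 with 181, rps-28 with 175 and rps-14, a protein of the platform of the small subunit, with 165. These were the 10 highest of all. The 5 lowest were rpl-37 at 41.9 CPM per kb, rpl-30 at 41.7, rpl-39, a very small protein that lines the peptide exit tunnel, at 37.7, rpl-42 at 26.03 and rpl-25.1 at 4.21. The large subunit held both ends of the order, from 4.21 to 527 CPM per kb with rpl-25.1 counted, while the small subunit ran from 42.1 to 186.

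**Figure D2:**
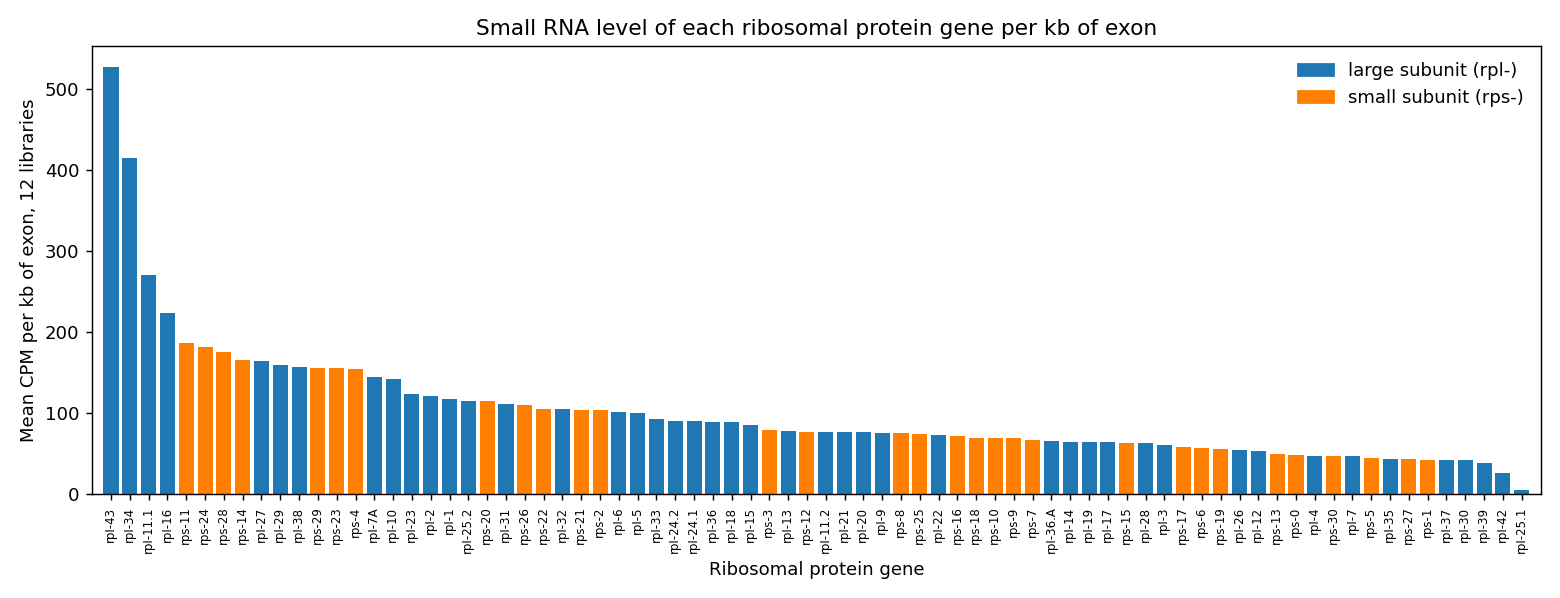
Mean CPM per kb of exon over 12 libraries for each of the 76 ribosomal protein genes, in descending order and coloured by subunit. rpl-43 (527) and rpl-34 (415) stand above the rest, and rpl-25.1 (4.21) lies lowest.

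rpl-43 (WBGene00004456, WBcel235 II:14155294-14155569, plus strand) showed how even a well covered gene was. It had 129 and 145 CPM in the N2 pair, 151, 79.8, 168 and 149 in the 4 HC125 libraries, 166 and 192 in the hrde-1;HC125 pair, 149 and 128 in the F6 pair, and 134 and 156 in the F21 pair. The groups overlapped except that the 2 hrde-1;HC125 libraries lay above those of N2, F6 and F21, and it was not called in any comparison. Over the 75 genes the highest group mean was a median of 1.45 times the lowest, against 1.82 over all tested genes. The ratio passed 2 in 6 of the 75 genes, against 45.1% of all tested genes, counting genes with a group at 0. These contrasts were not matched for level, and all tested genes had a lower median (27.04 CPM) than the 75 (46.5 CPM). The largest ratios of the 75 were those of rpl-11.2 (20.99) and rpl-42 (4.99), a ranking among ribosomal protein genes alone.

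**Figure D3:**
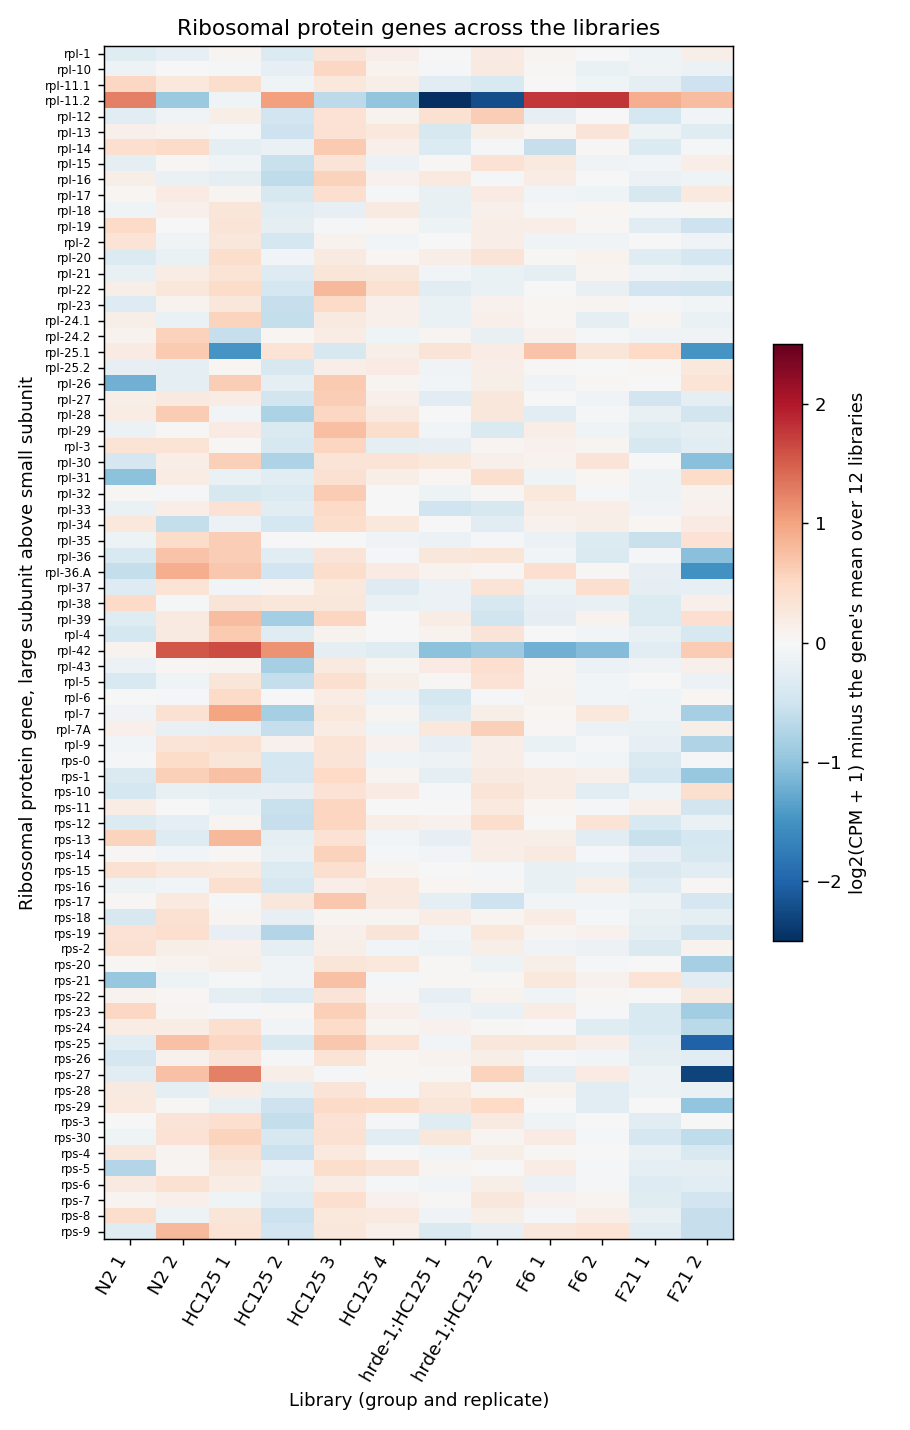
Level of each of the 76 ribosomal protein genes (rows, large subunit above small) in each of the 12 libraries (columns), as log2(CPM + 1) minus the gene's own mean. Most rows stay pale, while rpl-11.2 runs from 5.20 CPM in hrde-1;HC125 replicate 1 to 132 CPM in F6 replicate 2 and rpl-42 from 5.81 to 47.3 CPM.

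rpl-11.1 and rpl-11.2 encode L11, the protein that joins 5S ribosomal RNA and rpl-5 to the large subunit. They are a known pair of an autosomal and an X-linked copy, of which the autosomal rpl-11.1 is required for proliferation of the germline. Small RNAs at the X-linked rpl-11.2 (WBGene00004423, X:2241738-2242618, minus strand) varied more than at any other tested ribosomal protein gene. They came to 91.0 and 19.1 CPM in the N2 pair, 34.4, 77.3, 23.3 and 18.4 in the 4 HC125 libraries, 5.20 and 7.28 in the hrde-1;HC125 pair, 130.3 and 132 in the F6 pair, and 71.2 and 64.2 in the F21 pair. Both F6 libraries lay above, and both hrde-1;HC125 libraries below, every other library, while N2 and HC125 overlapped widely and enclosed F21.

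By group mean rpl-11.2 stood at 131 ± 0.885 CPM at F6 (SD, n = 2), 67.7 ± 4.97 at F21 (n = 2), 55.0 ± 50.8 in N2 (n = 2), 38.3 ± 26.8 in HC125 (n = 4) and 6.24 ± 1.47 in hrde-1;HC125 (n = 2). The lowest and highest group means were 20.99-fold apart. Despite that, no comparison called it in edgeR's quasi-likelihood test with Benjamini-Hochberg adjustment over all 10470 tested genes. The log2 fold change was -2.53 ± 0.76 (SE) in hrde-1;HC125 against HC125 (adjusted p = 0.0565), lower in both of the 2 libraries than in any of the 4. It was 0.93 ± 0.66 at F6 against F21 (adjusted p = 1.0), 1.45 ± 0.76 at F6 against N2 (adjusted p = 0.353), 0.52 ± 0.82 at F21 against N2 (adjusted p = 0.817) and -0.43 ± 0.77 in HC125 against N2 (adjusted p = 0.872).

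The N2 and HC125 replicates set how rpl-11.2 was read. Against HC125 it was lower in hrde-1;HC125 under all 12 alternatives (-3.35 to -1.74), 7 of which called it, with adjusted p from 1.95e-19 to 0.288. Without HC125 replicate 2 the value was -1.88 (adjusted p = 0.0364), without HC125 replicate 4 -2.89 (adjusted p = 0.0258), and without N2 replicate 2 and HC125 replicates 1 and 2 -1.74 (adjusted p = 4.17e-07). HC125 against N2 turned to 0.87 without N2 replicate 1, where F21 against N2 was 1.82, and was -2.14 without the 3 libraries that stood apart, which leaves 1 N2 library. F21 against N2 turned to -0.39 without N2 replicate 2. F6 against N2 ran from 0.54 without N2 replicate 2 to 2.75 without N2 replicate 1. F6 against F21 lay between 0.88 and 1.06 and was called in 3 of 10 alternatives, with adjusted p from 0.000738 to 1.0.

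The partner rpl-11.1 (WBGene00004422, V:3585312-3586064, minus strand) had the highest CPM of all 76 genes and a far narrower range. It had 248.5 and 209 CPM in the N2 pair, 234, 160.4, 207 and 190.2 in the 4 HC125 libraries, 141 and 132 in the hrde-1;HC125 pair, 174 and 161 in the F6 pair, and 146 and 121 in the F21 pair. Both hrde-1;HC125 libraries lay below all 4 of HC125 and both of N2. Relative to HC125 its log2 fold change in hrde-1;HC125 was -0.52 ± 0.16 (SE, edgeR adjusted p = 0.0264), a called decrease. The call ended without HC125 replicate 3 (-0.47, adjusted p = 0.0717), without hrde-1;HC125 replicate 1 (-0.57, adjusted p = 0.127), without replicate 2 (-0.49, adjusted p = 0.188) and with only the 2 groups compared (-0.53, adjusted p = 0.0505), and over its alternatives the adjusted p ran from 0.00104 to 0.188. At F21 against N2 it was -0.74 ± 0.19 (adjusted p = 0.153), called in 4 of 10 alternatives with adjusted p from 0.0187 to 0.414.

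Since both copies were counted in the same library, their ratio does not depend on scaling. rpl-11.1 had 2.73 and 10.9 times the counts of rpl-11.2 in the N2 pair, 6.81, 2.08, 8.86 and 10.3 times in the 4 HC125 libraries, 27.2 and 18.1 times in the hrde-1;HC125 pair, 1.33 and 1.22 times in the F6 pair, and 2.05 and 1.88 times in the F21 pair. The ratio was highest in the 2 hrde-1;HC125 libraries and lowest in the 2 F6 libraries. The sources used here do not say how reads that match both copies were treated, so such reads could move counts between them.

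**Figure D4:**
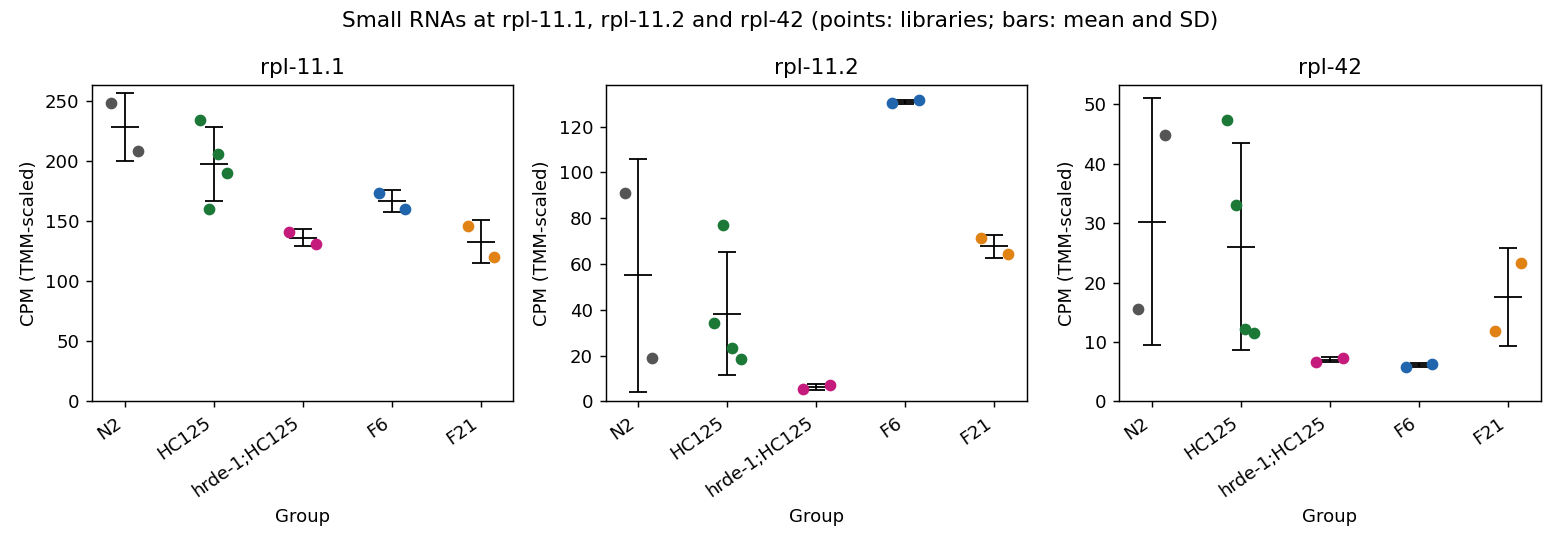
CPM of rpl-11.1, rpl-11.2 and rpl-42 in each library (points) by group, with the mean and SD (bars). rpl-11.2 is highest at F6 (130.3 and 132) and lowest in hrde-1;HC125 (5.20 and 7.28), and rpl-42 is highest in N2 replicate 2 and HC125 replicates 1 and 2 (44.9, 47.3 and 33.1).

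Beside the low rpl-11.2 of hrde-1;HC125, the germline and oocyte markers summed to 3247 and 3500 CPM there, against 2116 to 2740 in the other 10 libraries. At F6, where rpl-11.2 was highest, they summed to 2448 and 2465 CPM, within the range of those 10. Of the 4 body wall muscle markers unc-54 was called higher (1.06) and lev-11 lower (-1.07) in hrde-1;HC125 against HC125, and 3 of the 4 lay below 0. The part of these markers in the result was not tested. Among its neighbours on X, AH9.1, which lies 613 bases away on the same strand, had 18.1 and 14.02 CPM in hrde-1;HC125, against 18.7 to 42.1 in HC125 and 52.6 and 44.95 at F6. vha-15, which lies 1483 bases away on the other side, stayed between 3.40 and 10.8 CPM in all 12 libraries.

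rpl-42 (WBGene00004455, II:11092713-11094022, plus strand) was the second gene with a wide range, and it followed the libraries that stood apart. It had 15.5 and 44.9 CPM in the N2 pair, 47.3, 33.1, 12.2 and 11.6 in the 4 HC125 libraries, 6.71 and 7.28 in the hrde-1;HC125 pair, 5.81 and 6.30 in the F6 pair, and 11.8 and 23.3 in the F21 pair. The 3 highest values were those of N2 replicate 2 and HC125 replicates 1 and 2, and the 4 libraries of F6 and hrde-1;HC125 were the lowest. These rest on 7 to 44 reads a library, and 3 counts came to between 0.503 and 6.66 CPM, depending on the library.

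No comparison called rpl-42. Its log2 fold change was -1.69 ± 0.57 (SE) in hrde-1;HC125 against HC125 (edgeR adjusted p = 0.0623) and -2.40 ± 0.68 at F6 against N2 (adjusted p = 0.0936). It was -1.33 ± 0.69 at F6 against F21 (adjusted p = 1.0), -1.08 ± 0.69 at F21 against N2 (adjusted p = 0.495) and -0.51 ± 0.58 in HC125 against N2 (adjusted p = 0.773). HC125 against N2 turned to 0.54 without N2 replicate 2. Without the 3 libraries that stood apart hrde-1;HC125 against HC125 was -0.76 (adjusted p = 0.148), and without HC125 replicate 3 or 4 it was called at -1.94 and -2.003, with adjusted p from 0.00019 to 0.275 over its 12 alternatives. F6 against N2 ran from -2.90 without N2 replicate 1 (adjusted p = 0.0363) to -1.30 without the 3 libraries that stood apart (adjusted p = 0.381). It was called in 5 of 10 alternatives, with adjusted p from 8.68e-06 to 0.641. F21 against N2 ran from -1.60 without N2 replicate 1 to -0.02 without N2 replicate 2.

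The sperm markers moved with rpl-42 among N2 and HC125 libraries. All 31 major sperm protein genes of that list had counts, and their sum was 599 and 1807 CPM in the N2 pair, 1331, 1222, 694 and 418 in the 4 HC125 libraries, 1034 and 713 in the hrde-1;HC125 pair, 314 and 291 in the F6 pair, and 404 and 618 in the F21 pair. The same 3 libraries were highest for both, but hrde-1;HC125 replicate 1 had 1034 CPM of sperm markers beside 6.71 CPM of rpl-42. The part of sperm RNA in the result was not tested. The gene beside rpl-42, nbs-1, at 1022 bases, stayed between 118 and 150.2 CPM, and the ribosomal protein gene rpl-36.A, at 2520 bases, had 46.0 CPM in N2 replicate 2, 38.7 and 17.0 in HC125 replicates 1 and 2, and 7.78 in F21 replicate 2.

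rpl-25.1 (WBGene00004438), also X-linked, had no reads in HC125 replicate 1 and F21 replicate 2, where 3 counts would be 6.45 and 5.83 CPM, and at most 15 reads elsewhere. Its autosomal partner rpl-25.2 had a mean of 48.5 ± 0.385 CPM over the N2 pair (SD, n = 2) and 57.2 ± 10.3 over HC125 (n = 4). For the hrde-1;HC125, F6 and F21 pairs (n = 2 each) it was 58.1 ± 7.03, 56.8 ± 0.445 and 62.9 ± 7.24 CPM, and the gene was not called. Both X-linked genes of the 76 thus had fewer reads than their autosomal partner in every library. rpl-24.1 and rpl-24.2, the latter a relative of the yeast assembly factor Rlp24, had count ratios from 0.551 to 2.06 over the 12 libraries, and were not called.

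In hrde-1;HC125 against HC125 small RNAs changed at 4 of 75 ribosomal protein genes, 1 higher and 3 lower, or 5.33%, where 17.0% of all tested genes were called (7.76% higher and 9.20% lower). The median log2 fold change was -0.08 over these genes and -0.03 over all tested genes, and 46 of 75 were below 0, against 52.7% of all. The median over these genes turned to 0.07 without HC125 replicate 3 and to 0.03 without hrde-1;HC125 replicate 1. Beside rpl-11.1, rps-17 had 25.8, 32.3, 42.2 and 30.8 CPM in the 4 HC125 libraries and 22.5 and 18.1 in the hrde-1;HC125 pair, with no overlap. rps-17 fell by 0.72 ± 0.22 (SE, edgeR adjusted p = 0.031), from 32.8 ± 6.86 CPM in HC125 (SD, n = 4) to 20.3 ± 3.11 (n = 2), lower in 2 of 2 libraries. rpl-33 had 51.6, 32.3, 55.5 and 39.7 CPM against 27.8 and 29.7, again with no overlap. rpl-33 fell by 0.62 ± 0.21 (adjusted p = 0.0484), from 44.8 ± 10.7 to 28.7 ± 1.29 CPM, lower in 2 of 2. For rpl-7A the values were 105, 80.6, 139 and 112 CPM against 145 and 184, so that both hrde-1;HC125 libraries lay above all 4 of HC125. rpl-7A rose by 0.57 ± 0.18 (edgeR adjusted p = 0.0373), from 109 ± 23.9 to 164 ± 27.4 CPM, higher in 2 of 2. It is among 4 tested genes listed for unproductive splicing of the messenger RNA and its decay, as reported in C. elegans.

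Each of those 3 calls ended without single libraries, and none of the 3 was called by DESeq2 or with only the 2 groups compared. Of 12 alternatives, 5 called rps-17, 4 called rpl-33 and 5 called rpl-7A. Losses under single libraries were as follows. rps-17 lost its call without HC125 replicate 3 (-0.55, adjusted p = 0.141) and without hrde-1;HC125 replicates 1 and 2 in turn (-0.88, adjusted p = 0.0953, and -0.59, adjusted p = 0.292). rpl-33 lost it without HC125 replicates 1 and 3 (-0.60, adjusted p = 0.0639, and -0.45, adjusted p = 0.184) and without hrde-1;HC125 replicates 1 and 2 (-0.57, adjusted p = 0.272, and -0.68, adjusted p = 0.164). rpl-7A lost it without HC125 replicates 1, 2 and 4 (0.53, adjusted p = 0.0664, 0.43, adjusted p = 0.0828, and 0.57, adjusted p = 0.0654) and without hrde-1;HC125 replicate 2 (0.38, adjusted p = 0.436). Adjusted p over the 12 alternatives ran from 0.00814 to 0.292 for rps-17, from 0.00651 to 0.272 for rpl-33 and from 0.00394 to 0.436 for rpl-7A. The germline sum given for rpl-11.2 is higher in the same hrde-1;HC125 libraries, and its part in these results was not tested.

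Without N2 replicate 2 and HC125 replicates 1 and 2, 9 ribosomal protein genes were called lower and 1 higher in this comparison, where 11.19% of all tested genes were lower and 9.74% higher. By DESeq2 0 were higher and 3 lower, rpl-11.1, rpl-11.2 and rpl-42, where 6.38% of all genes with an adjusted p were higher and 8.59% lower. A further 6 genes of this comparison had an unadjusted p under 0.05 without a call, so that 2 higher and 8 lower, 10 of 75, stood against 27.5% of all tested genes (12.8% higher and 14.6% lower). Beside rpl-11.2 and rpl-42 these were rpl-22 (-0.62), rpl-29 (-0.57), rpl-38 (-0.43) and rpl-12 (0.44).

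No ribosomal protein gene was called by edgeR in HC125 against N2, where 0.506% of all tested genes were, and 1 of 75 had an unadjusted p under 0.05, against 10.5% of all (5.48% higher and 5.03% lower). That gene was rpl-26 (0.85 ± 0.34, adjusted p = 0.372). The median log2 fold change was -0.01, and the median SE was 0.26. Of the 75, 35 genes lay above 0 and 40 below, against 50.9% of all tested genes above 0. DESeq2 called 0. The comparison shares its HC125 libraries with the previous one.

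At F6 against F21 again 0 of 75 were called by edgeR and 0 by DESeq2. Of all tested genes edgeR called 0.143% (0.0860% higher and 0.0573% lower), and DESeq2 called 0.372% of all with an adjusted p. At an unadjusted p under 0.05, 3 were higher, against 2.77% of all in either direction (1.57% higher and 1.20% lower). These were rps-23 (0.60), rps-9 (0.68) and rps-1 (0.73), all of the small subunit and each with adjusted p = 1.0. The median was 0.19 over ribosomal protein genes and 0.01 over all tested genes. The median ribosomal protein gene, as log2(CPM + 1), had a pooled SD of 0.19 between libraries of a group. These genes share the same libraries, so they are not separate observations. Of the 75, 63 lay above 0, against 51.4% of all tested genes, with 29 of 31 for the small subunit (median 0.28) and 34 of 44 for the large (median 0.10). The largest positive value was that of rpl-11.2 and the most negative that of rpl-42.

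F21 against N2 shares the F21 libraries with that comparison, where F21 was the reference. The signs are thus opposite, and both medians lay on the side of lower counts at F21. Here 0 of 75 were called by edgeR, where 0.201% of all tested genes were (0.0860% lower). At an unadjusted p under 0.05, 11 were lower, against 14.2% of all in either direction (7.98% lower). DESeq2 called rpl-11.1 lower, where 0.807% of all genes with an adjusted p were lower. The median was -0.30, against 0.02 over all tested genes, and 60 of 75 lay below 0, against 48.1% of all. For the small subunit these were 28 of 31, with a median of -0.42, and for the large 32 of 44, with a median of -0.16. Here too the genes share libraries and are not separate observations. rps-23 (-0.81, adjusted p = 0.233), rps-24 (-0.66, adjusted p = 0.254), rps-6, the small subunit protein phosphorylated downstream of TOR, (-0.65, adjusted p = 0.279) and rpl-3, a protein near the peptidyl transferase centre, (-0.71, adjusted p = 0.29) were among the 11.

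In the shallow F21 replicate 2 rps-27 had 1.94 CPM, from 1 read, against 11.09 to 34.4 CPM in the other 11 libraries, and rps-25 had 5.83 CPM, from 3 reads, against 20.4 to 44.9. Both were picked after their values were seen. Over all alternatives the median for F21 against N2 stayed below 0, between -0.37 and -0.12, and that for F6 against F21 above 0, between 0.16 and 0.29. Summed intestine markers were 1093 and 694 CPM at F21, against 1540 and 1414 at F6 and 1932 and 1758 in N2. A list of other abundant messenger RNAs was chosen by name, mostly collagens, which are hypodermis markers too, with actins, tubulins and the like. Messenger RNA was not measured, and only 73 of the 169 listed genes in the count table were tested. Over these 73 the median was -0.67 at F21 against N2 and 0.32 at F6 against F21. Their part in the result was not tested.

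At F6 against N2, 0 of 75 were called by edgeR, where 1.43% of all tested genes were. At an unadjusted p under 0.05, 3 were lower, against 19.6% of all in either direction (7.88% higher and 11.7% lower). These were rpl-42, rpl-11.1 (-0.44, adjusted p = 0.193) and rpl-14 (-0.71, adjusted p = 0.246). DESeq2 called rpl-42 lower, where 4.31% of all genes with an adjusted p were lower. The median was -0.07, against 0.06 over all tested genes, and its sign turned over the alternatives, from -0.15 to 0.11. The 3 comparisons against N2 share both N2 libraries.

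**Figure D5:**
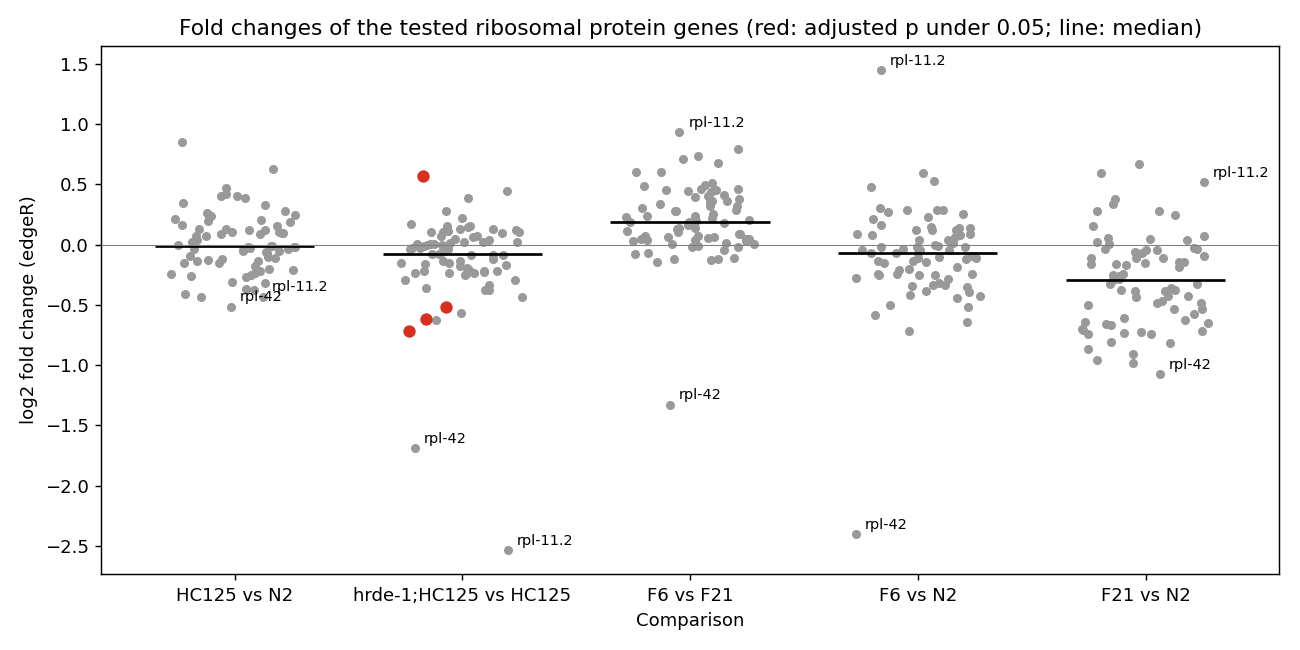
log2 fold change of each of the 75 tested ribosomal protein genes in 5 comparisons, with called genes in red and the median as a line. Called genes appear only in hrde-1;HC125 against HC125 (4 of 75), and there rpl-11.2 (-2.53) and rpl-42 (-1.69) lie far below the other genes without a call.

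The ribosomal proteins that carry other names were listed apart. The list held the stalk proteins rla-0, rla-1 and rla-2, which recruit elongation factors, the ubiquitin fusions ubl-1 and ubq-2, and the scaffold rack-1. None of the 6 was called in any of the 5 comparisons by edgeR, where 0.143% to 17.0% of all tested genes were. Of the 6, rla-1 came nearest at F6 against F21 with 0.74 ± 0.34 (edgeR adjusted p = 1.0). At an unadjusted p under 0.05, 1 of the 6 passed in that comparison, against 2.77% of all tested genes. In the other 4 comparisons 0 passed, against 10.5% to 27.5% of all. Added to the 76 genes they raised the mean share from 0.441% to 0.482% in N2 and from 0.413% to 0.456% at F6.

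Among other parts of the translation machinery the 5 calls were in hrde-1;HC125 against HC125, where 17.0% of all tested genes were called, and there were 0 in the other 4 comparisons, where 0.143% to 1.43% were. Of 69 mitochondrial ribosomal protein genes mrpl-53 rose (0.96 ± 0.32, adjusted p = 0.0449) and 68 were not called. Of 37 translation factors ife-5, a cap-binding protein, fell by 0.93 ± 0.14 (adjusted p = 9.998e-05) and iff-2, an eIF5A gene, fell by 0.55 ± 0.15 (adjusted p = 0.0177). Of 34 ribosome biogenesis genes nol-6 rose (0.45 ± 0.15, adjusted p = 0.0418) and rrp-8, a relative of a ribosomal RNA methyltransferase, fell by 0.59 ± 0.20 (adjusted p = 0.0491). The median log2 fold change in this comparison was 0.14 over mitochondrial ribosomal proteins, 0.02 over translation factors and 0.03 over biogenesis genes, against -0.03 over all tested genes. Of the genes listed for reported unproductive splicing, rpl-1, rpl-3, rpl-7A and rpl-12 were tested and 1 was called, rpl-7A. The 20 ribosomal RNA genes of the annotation were not analysed here.

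Histone genes, also listed by name, had 11 of 71 called higher and 11 lower in hrde-1;HC125 against HC125, where 7.76% of all tested genes were higher and 9.20% lower. At F6 they had 15 lower against N2 and 4 lower against F21, where 1.05% and 0.0573% of all tested genes were lower. Several histone genes share a name in the annotation, and how reads that match several copies were treated is not given. Histone calls may thus not be separate from each other. The list of other abundant messenger RNAs, chosen by name and not by level, had 3 of 73 tested genes higher and 6 lower in hrde-1;HC125 against HC125. Among them were the collagens col-162 (-4.92) and col-161 (-4.45). Set beside the 4 of 75 ribosomal protein genes, no test of the difference was made.

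The annotation around the genes could bear on single counts. Of the 76 genes 26 overlap another annotated gene, and 14 share exon bases with one. The span of 13 holds 19 snoRNA genes. Introns of ribosomal protein genes are known hosts of snoRNAs, which guide modification of ribosomal RNA. Their median was 89.96 CPM per kb, against 76.4 over the tested genes without one. rps-20 shares 110 exon bases with the microRNA gene annotated as cel-mir-354, the most of any, so that reads of the microRNA cannot be told apart from reads of rps-20 in counts per gene. It had 36.9 to 82.1 CPM and was not called in any comparison. The strand setting is not given, so reads of both strands may be included, and 2 of the 76 genes lie on X, 21 on I, 10 on II, 18 on III, 17 on IV and 8 on V.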

How the data were processed

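Raw counts of 21 to 26 nt reads were deposited by the authors as 1 table, genes by 12 libraries. Bowtie2 and HTSeq were used, per the submitters' processing notes. Not given in the sources used here: versions, build, annotation, strand setting and how multiply matching reads were treated. The 2 libraries of HC125 labelled 5'-dependent are not analysed here. Names, lengths and coordinates came from Ensembl release 115 of WBcel235 by gene ID (20194 of 20541 IDs matched, 347 not), and the counts may rest on another build. Totals of 451389 to 6379388 are reads assigned to genes, not sequencing depth.

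All 12 libraries, in 5 groups, entered 1 model (7 residual degrees of freedom) in R 4.3.3 with edgeR 4.0.16: filterByExpr (minimum count 10, minimum total count 15), TMM, robust quasi-likelihood F test (two-sided), Benjamini-Hochberg adjustment over 10470 tested genes, called under 0.05. SE came from the F statistic. CPM is per 1e+06 counts scaled by TMM factors. Fits were tested on simulated data. Alternatives were DESeq2 1.42.0, library size alone, no low-count filter, only the 2 groups compared, the replicate number as a block, each library left out, and 3 libraries that stand apart left out.

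Named genes were the called genes, up to 8 each way by comparison, the 10 highest and 5 lowest per kb, genes with 0 counts, pairs that share a number, the list of other names, and up to 3 called genes of other lists. Genes named beside these were chosen after their values were seen. The genes, lists and alternatives were chosen with earlier results of these data known. Replicate numbers were not used to pair the libraries: deviations from the group means of same-numbered libraries correlated at -0.254 to 0.312. In a group of 2 the deviations mirror each other, so this check cannot settle whether libraries were handled in pairs.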

Additional observations from a re-analysis of the deposited data

Results flagged for a closer look

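In HC125, the only group of 4 libraries, 7 of 77 values tested (76 genes and the summed share) had 1 library far from the other 3, where chance flags about 1 in 20. HC125 replicate 2 lay low for rpl-21 (32.3 CPM, others 49.2 to 51.6), rps-18 (35.7 CPM, others 42.9 to 43.3) and rps-8 (35.7 CPM, others 62.3 to 64.5). HC125 replicate 1 lay high for rpl-35 (30.1 CPM, others 18.2 to 19.5) and rps-27 (34.4 CPM, others 13.3 to 15.3). rpl-38 was low in HC125 replicate 4 (41.3 CPM, others 56.03 to 58.1) and rps-21 high in HC125 replicate 3 (51.6 CPM, others 28.9 to 30.1). Of these genes 0 were called in a comparison of HC125.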

How the results depend on the processing

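Of 172 alternative values of the counts, medians and shares, 135 kept within their limits. Of 398 for single genes, 339 kept their call or lack of one, 26 lost a call and 33 gained one. In 0 did the sign change with a call in either fit. Sign changes without a call were counted as kept, such as those of rpl-11.2 and rpl-42 in HC125 against N2. For each count, median or share that moved, the cause was not tested. In hrde-1;HC125 against HC125 (1 higher and 3 lower), library size alone gave 0 and 5, with the median of all genes at -0.15 in place of -0.03, DESeq2 0 higher, and only the 2 groups compared 0 and 1. Of all tested genes, 17.6% (library size alone), 14.97% (DESeq2), 15.7% (only the 2 groups), 20.9% (without the 3 libraries) and 20.2% (replicate block) were called there in either direction, and 0.134% to 8.04% in the other 4 comparisons under these settings or no low-count filter. Leaving out 1 HC125 library gave 0 to 1 higher and up to 6 lower, where 15.05% to 17.45% of all tested genes were called in either direction. Leaving out either hrde-1;HC125 library left 1 in that group, and the calls of rpl-11.1, rps-17 and rpl-33 ended. Without the 3 libraries that stand apart, 9 were lower in that comparison, 1 was lower in HC125 against N2 (median 0.25), 1 higher at F6 against F21 and 1 lower at F21 against N2. With no low-count filter 1 was higher at F6 against F21, 1 higher and 1 lower at F6 against N2, and 1 lower at F21 against N2. With only the 2 groups compared 1 was higher at F6 against F21 and 1 lower at F6 against N2. By DESeq2 1 was lower at F6 against N2 and 1 at F21 against N2. At F6 against N2, leaving out N2 replicate 1 left 1 library in that group, and rpl-42 was then at -2.90.

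Under the replicate block 5 genes were higher in hrde-1;HC125 against HC125, where 9.66% of all tested genes were, with a median of 0.12, 1 was lower at F6 against N2 and 1 at F21 against N2. Whether the numbers pair the libraries was not settled. With the 6 further genes the mean shares of N2, hrde-1;HC125, F6 and F21 became 0.482%, 0.445%, 0.456% and 0.406%, and by TMM-scaled CPM 0.424% at F6. Where leaving out 1 library left a group with 1, that library was assumed to vary like the other groups. Counts in the shallow libraries limit rpl-25.1, rpl-42 and rps-27 most.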
